A study of Mus musculus with 2 samples.

Results

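The lysyl oxidase family was followed on 2 Affymetrix arrays of wild-type mouse cartilage. Its members were taken as the probe sets naming exactly 1 of the 5 genes Lox, Loxl1, Loxl2, Loxl3 and Loxl4, which gave 8 probe sets of 4 genes among 18193 named genes on the array. Lox had 3 probe sets, Loxl1 and Loxl4 had 2 each and Loxl3 had 1. Loxl2 had 0, because its 2 probe sets also name the predicted gene Gm21451, and it was not analysed here. RefSeq lists Loxl2 as an older alias of Loxl3, and the Loxl3 probe set was assigned through its gene identifier.

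Both arrays were hybridised with RNA of embryos of the inbred strain C57BL/6J at day E17.5, with no mutation or treatment named. The round array held cartilage portions enriched in round chondrocytes, and the columnar/hypertrophic array held portions enriched in columnar and hypertrophic chondrocytes. RNA of 3 portions was mixed for each array, and the study's methods describe the round portions as sections of femoral cartilage. Each group is therefore 1 array, with no replicate error for any value and no test, and enrichment of a zone is not a pure cell population.

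Lysyl oxidases are secreted copper enzymes that oxidise lysine and hydroxylysine side chains of collagens and elastin, and the aldehydes formed go on to covalent cross-links that make fibres insoluble and stiff. Lox and Loxl1 are made as pro-enzymes with an N-terminal propeptide, which the proteinase encoded by Bmp1 removes. Loxl2, Loxl3 and Loxl4 share the catalytic domain but carry scavenger receptor cysteine-rich domains instead. In cartilage these enzymes stabilise the collagen II and XI fibrils, and the comparison of round with columnar and hypertrophic portions asks how their transcripts are spread along the growth plate.

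The measured genes of the family did not share a direction between the arrays. Loxl4 had a 10.4-fold higher signal in the columnar/hypertrophic portions by its brighter probe set, and 3.45-fold by the other. Loxl1 was at least 6.81-fold lower in these portions, and Loxl3 and Lox were within 2-fold. By a difference of at least 2-fold, 1 of 4 genes was higher and 1 was lower. Among all 11703 genes above the floor on at least 1 array, 4.31% were higher and 6.37% were lower by that much, 504 and 745 genes. With the arrays scaled to equal medians these became 943 and 414 genes. The floor, a signal of 100.5, was the 95th percentile of probe sets for chemosensory receptor genes, which cartilage should not express. A signal under the floor was raised to it, so that a gene under it on 1 array gives only a bound.

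**Figure D1:**
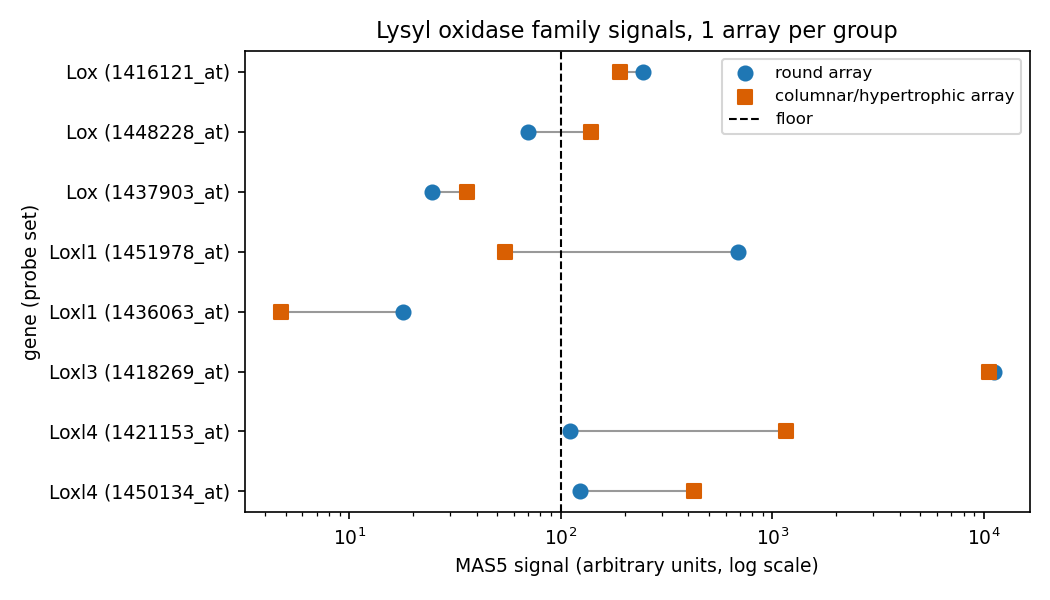
MAS5 signal (horizontal, arbitrary units, log scale) of the 8 probe sets of the 4 lysyl oxidase genes with circles for the round array and squares for the columnar/hypertrophic one (1 array per group) and a dashed line at the floor of 100.5. Both Loxl4 probe sets lie just above the floor on the round array and well above it on the other, the brighter Loxl1 probe set crosses the floor the opposite way, and the Loxl3 points nearly coincide.

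Loxl4 encodes a family member with scavenger receptor domains. The sequence before its start site is shown because it is the member with the higher columnar/hypertrophic signal. Of the 5 genes, 1 matched the RefSeq promoter table in a search that left out 1 chromosome. Absence of the other members is therefore not shown. The 250 bases end at the base before the RefSeq start and lie at chr19:42612807-42613056 on the minus strand of GRCm38.p6. They are written 5′ to 3′, and capitals mark the GC box GGGCGG.
Loxl4: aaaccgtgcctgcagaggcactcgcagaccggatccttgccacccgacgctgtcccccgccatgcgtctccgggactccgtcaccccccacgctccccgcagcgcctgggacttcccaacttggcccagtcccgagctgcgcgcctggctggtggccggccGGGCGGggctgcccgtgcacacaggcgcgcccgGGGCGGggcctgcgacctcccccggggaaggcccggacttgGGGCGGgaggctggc
GGGCGG occurred 3 times, with its first base at -89, -56 and -15 relative to the start, and on either strand it was in 32.7% of 32851 promoter stretches of this length. This motif was searched after the sequence was seen. The hypoxia response element core ACGTG and the RUNX core TGTGGT were not in this stretch on either strand, and 16.6% and 14.0% of all stretches held them. The stretch had 76% G and C, against a median of 52.4%.

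By its brighter probe set (1421153_at), Loxl4 had a signal of 111 in the round and 1154 in the columnar/hypertrophic portions. The log2 difference, always columnar/hypertrophic minus round, was 3.38. The other probe set (1450134_at) had 123 and 425, a log2 difference of 1.79 or 3.45-fold. Both probe sets were thus higher on the columnar/hypertrophic array, and both round signals were close to the floor. With the floor at the 99th percentile of the same receptor probe sets, the brighter probe set gave at least 7.93-fold.

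The probe sets of Loxl4 agreed in direction and not in size. Their log2 differences lay 1.59 apart. A gap of that size between the brightest pair of probe sets was seen in 16 of 4825 genes (0.332%) for which more than 1 probe set exceeded the floor on each array. The SD of log2 differences within such a gene was 0.37, and 0.40 among the 926 genes of this kind with no probe set above a mean signal of 512. That SD is a technical spread between probe sets of a gene, not a spread between samples. Even the smaller Loxl4 difference was larger than it.

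Of all genes above the floor on at least 1 array, 22 (0.188%), Loxl4 included, had a log2 difference as high as that of the brighter Loxl4 probe set. The rank of its other probe set, at 1.79, was not computed. The genes nearest to the brighter probe set in log2 difference were sought among those above the floor on both arrays. Riken, Gm and similar provisional names were left out. The nearest were Ppa1, an inorganic pyrophosphatase gene, at 3.26 (2281 to 21832) and Sp7 at 3.51 (170 to 1940). Sp7 is the osterix transcription factor gene of osteoblasts and hypertrophic chondrocytes. Likeness here is the gap in a single difference over 2 arrays, 0.12 for Ppa1 and 0.13 for Sp7.

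Loxl1, best known for its role in elastic fibre assembly and renewal, went the other way. Its brighter probe set (1451978_at) had a signal of 684 in the round and 54.6 in the columnar/hypertrophic portions, the latter under the floor. The bound was a log2 difference of -2.77, at least 6.81-fold lower. Its other probe set (1436063_at) was under the floor on both arrays, at 18.0 and 4.73, and gives no difference. The direction of Loxl1 therefore rests on 1 probe set. Of all genes above the floor on at least 1 array, 47 (0.402%), Loxl1 included, had a log2 difference as low as this bound.

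The gap between the differences of Loxl4 and Loxl1 is free of any single scaling factor between the arrays, apart from the floor. The log2 difference of Loxl4 lay at least 6.15 above that of Loxl1, a 71.0-fold shift in the ratio of their signals. With the smaller Loxl4 probe set it lay at least 4.56 above, or 23.5-fold.

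Loxl3, needed for normal palate and spine development in mice, differed little between the arrays. Its single probe set (1418269_at) had 11153 in the round and 10523 in the columnar/hypertrophic portions, a log2 difference of -0.08 (1.06-fold lower). This is well inside the technical spread, and its sign turned with scaling to equal medians (0.20). With that scaling the median of all genes above the floor on at least 1 array was 0.22. The Loxl3 difference was -0.26 with quantile normalization and -0.27 after lowess centring. Both arrays had a strong Loxl3 signal, so the gene was measured far from the floor.

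Lox, the founding member, had no settled direction. Its brightest probe set (1416121_at) had 244 and 190, a log2 difference of -0.36 or 1.29-fold lower in the columnar/hypertrophic portions. A dimmer probe set (1448228_at) had 69.8 on the round array, under the floor, and 139 on the other, at least 1.38-fold higher. The dimmest (1437903_at) had 24.7 and 35.9, under the floor on both. The probe sets therefore pointed in opposite directions around a low signal, with log2 differences at least 0.83 apart. With the mean of the floored probe sets, in which the dimmest counts as no difference, the value was 0.03.

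**Figure D2:**
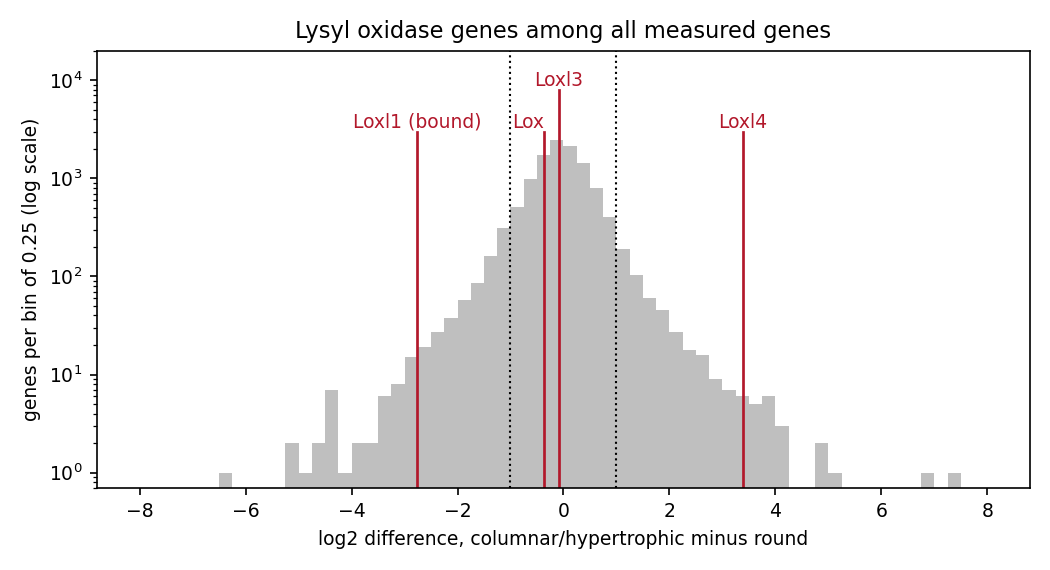
Number of genes (vertical, log scale) by log2 difference in bins of 0.25 (horizontal, columnar/hypertrophic minus round) for the 11703 genes above the floor on at least 1 array, with dotted lines at 2-fold and red lines at the 4 lysyl oxidase genes, Loxl1 being a bound. Loxl4 at 3.38 and Loxl1 at -2.77 or lower lie in opposite tails, while Loxl3 at -0.08 and Lox at -0.36 lie in the centre.

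No order of signal among the 4 genes is given, because probe sets of different genes differ in affinity. In bulk RNA, fewer cells of a type and less RNA per cell cannot be told apart, and this holds for every difference here.

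Markers of the zones and of neighbouring tissue differed in the same directions as Loxl4 and Loxl1. Of 7 measured prehypertrophic and hypertrophic marker genes, 6 were higher by at least 2-fold in the columnar/hypertrophic portions, and the summed signal of the 8 named on the array went from 2197 to 53163. Col10a1 (hypertrophic collagen, 24.2 to 10818) and Ihh (the hedgehog ligand of prehypertrophic cells, 143 to 2153) were among them, and Mmp13 was under the floor on both arrays. Of 9 measured markers of round, resting and periarticular chondrocytes, 8 were at least 2-fold lower, Prg4, the lubricin gene, by at least 28.1-fold. The 10 markers of chondrocytes of all zones were within 2-fold. The markers thus went the way of the labels.

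Of 10 measured markers of perichondrium, fibroblasts and tendon, 7 were lower by at least 2-fold in the columnar/hypertrophic portions and 0 higher. Their summed signal over 12 named genes went from 87273 to 27310, and Scx and Dpt were under the floor on both arrays. These markers moved with Loxl1, and their part in its difference was not tested. Most markers of other tissues were dim. Above the floor on at least 1 array were 4 of 7 osteoblast, 2 of 8 endothelial, 3 of 7 blood and macrophage and 4 of 8 skeletal muscle genes, and their part in the Loxl4 and Loxl1 differences was not tested either. Past 2-fold were, in the osteoblast list, Sp7 (3.51) and Col1a1 (-1.26), in the endothelial list Erg (-2.12), which is also in the round list, in the blood and macrophage list Lyz2 (1.17), and in the muscle list Tnnt3 (at least 2.09) and Des (a bound of -1.36).

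The substrates of lysyl oxidases also differed among themselves. Of the 12 fibril-forming collagen chains and elastin measured, 6 were lower by at least 2-fold in the columnar/hypertrophic portions and 0 higher, with a median log2 difference of -1.06 against -0.05 over all genes above the floor on at least 1 array. Col3a1, the collagen III chain of loose connective tissue, had 26223 and 4986 (-2.39, and -3.23 by its other probe set). Eln, encoding elastin, had 833 and 228 (-1.87). Its other probe set stayed under the floor and counted as no difference, so that averaging the pair gave -0.93. The collagen V chains, which start fibrils of collagen I, were lower as well, Col5a1 by -1.81 and Col5a2 by -1.42. Col1a1 had 1672 and 696 (-1.26, and -1.96 by its other probe set). With the arrays scaled to equal medians its brightest probe set gave -0.98. Col1a2 was within 2-fold by its brightest probe set (-0.85), but gave -1.98 and -1.63 by its others.

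The cartilage chain Col2a1 differed by 0.19 (33307 and 37936, and -0.07 after lowess centring). Eln and Loxl1, substrate and enzyme of the elastic fibre, were thus both lower in the columnar/hypertrophic portions, and Col2a1 and Loxl3 were both within 2-fold. Lox was within 2-fold as well, and Loxl4 was higher while no listed substrate was higher by 2-fold. The fibulin genes Fbln5 (-0.32), Fbln1 (-0.27) and Fbln2 (-0.39), from the list of partner genes below, were also within 2-fold. A link between enzymes and substrates was not tested. Col1a1, Col1a2 and Col3a1 also stand in the perichondrium, fibroblast and tendon list, so these counts share genes.

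**Figure D3:**
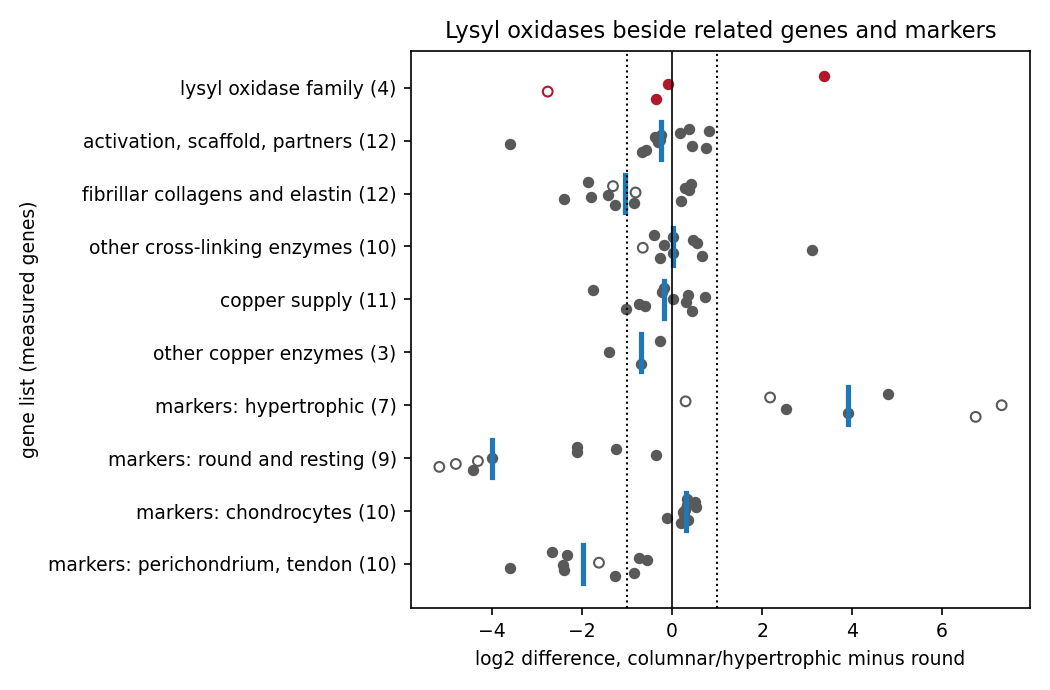
Log2 difference (horizontal, columnar/hypertrophic minus round) of each measured gene of the lysyl oxidase family (red), of 5 lists of related genes and of 4 marker lists (grey), 1 point per gene, open where it is a bound, with list medians as blue bars, dotted lines at 2-fold and the number of genes in brackets. The fibrillar collagen and elastin list has its median at -1.06, the other cross-linking enzymes at 0.02, and the hypertrophic markers at 3.91.

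Genes for the activation and placing of the enzymes had few differences of 2-fold. Of 15 named on the array, 12 were measured, 1 was at least 2-fold lower and 0 were higher, with a median of -0.26. With equal medians the list median was 0.02, against 0.22 over all genes above the floor on at least 1 array (-0.05 as reported). So scaled, 2 genes were higher, Thbs1, encoding thrombospondin 1 (0.83 as reported, 1.11 so scaled), and Pcolce2, encoding a procollagen C-proteinase enhancer (0.76 and 1.04). That scaling also took the number of all genes at least 2-fold higher from 504 to 943. The lower gene was Postn, encoding periostin, a matrix protein that helps bring BMP1 to its targets, with 1919 and 158 (-3.60). Postn is also in the perichondrium list. Bmp1 had 560 and 353 (-0.66, and -0.76 by another probe set), and Fn1, encoding fibronectin, had 6048 and 8203 (0.44).

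Other enzymes that cross-link matrix, or modify collagen lysines before cross-linking, had 1 gene at least 2-fold higher of 10 measured, and 0 lower. Tgm2, encoding transglutaminase 2, which joins glutamine to lysine residues, was 8.62-fold higher in the columnar/hypertrophic portions (228 to 1963), and those of its other probe sets that exceeded the floor on either array gave log2 differences between 1.86 and 3.49. All of the Tgm2 probe sets have a suffix that marks possible matches to several transcripts. Colgalt1, encoding a collagen galactosyltransferase, had 6192 and 9081 (0.55), but 1.48 by its other probe set and 1.02 as the mean of both. The lysyl hydroxylase gene Plod2 had 11382 and 18033 (0.66, and 0.31 by its other probe set). The list median was 0.02 (-0.04 after lowess centring).

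Of 11 measured genes of copper supply, 2 were at least 2-fold lower and 0 higher, with a median of -0.17. The lower genes were the metallothionein gene Mt2 (530 to 157, -1.75) and Slc31a2, a copper transporter family gene (416 to 204, -1.03, and -0.13 by its other probe set). With equal medians the list median was 0.11, against 0.22 over all genes above the floor on at least 1 array (-0.05 as reported). So scaled, Slc31a2 (-0.75) was under 2-fold. Cox17, encoding a mitochondrial copper chaperone, was past 2-fold (1.003, and 0.72 as reported), which left 1 lower and 1 higher. Atp7a, the pump that loads copper into the secretory pathway where lysyl oxidases receive it, had 2637 and 1729 (-0.61). The other Atp7a probe set gave -0.86. Among 9 named genes of other copper amine oxidases and copper enzymes, 3 were above the floor. Moxd1, a monooxygenase-like gene, was at least 2-fold lower (1166 to 443, -1.40).

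The calls of the 4 lysyl oxidase genes were recomputed with 9 alternatives. Loxl4 lay between 2.58 and 3.54, and Loxl1 between -3.65 and -1.38, so each passed 2-fold in the same direction under every one of them. Not every alternative could move these values. Leaving out probe sets with suffixes removed none of the members. Loxl4 stayed at 3.38 with the floor at the 90th percentile, with a floor for each array and without a floor. Loxl3 lay between -0.27 and 0.20, and Lox between -0.36 and 0.03. The ends at -1.38 for Loxl1 and 0.03 for Lox come from the mean of floored probe sets. In that mean a probe set under the floor on both arrays counts as no difference.

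**Figure D4:**
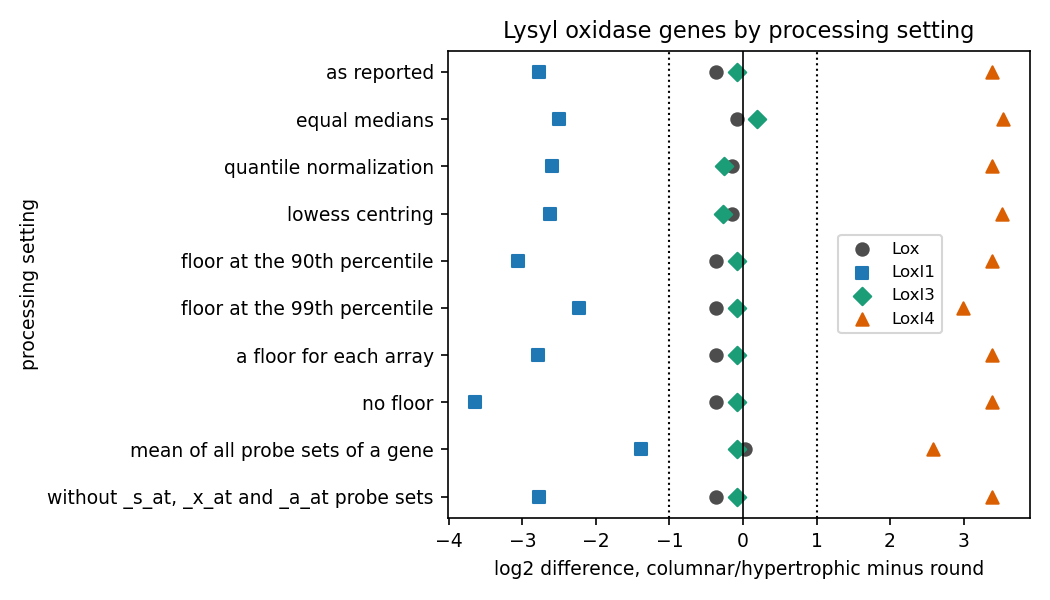
Log2 difference (horizontal, columnar/hypertrophic minus round) of Lox, Loxl1, Loxl3 and Loxl4 as reported and under 9 other processing settings (vertical), 1 point per gene and setting, with dotted lines at 2-fold. Loxl4 stays right of the upper line, Loxl1 left of the lower one, and Lox and Loxl3 stay near 0.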

How the data were processed

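The authors deposited linear intensities of 45101 probe sets on 2 whole-genome mouse arrays. The submitters' processing notes name MAS5 (with no version), which subtracts background and scales each array. The mean without the lowest and highest 2% of signals was 500.0 on both arrays. The study's methods name RMA, whose log scale these values do not have. The median signal was 128 on the round and 105 on the columnar/hypertrophic array, and 55.0% and 50.8% of probe sets lay above the floor.

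Of all probe sets, 34945 had 1 gene symbol and 932 had several, which were not used for any gene. Entrez identifiers of 34741 matched RefSeq names (GRCm38.p6). The floor came from 87 probe sets of chemosensory receptor genes. A gene took its brightest probe set by mean floored log2 signal. With 1 array per group no test was made, and a difference of at least 2-fold was the rule for a call. The number of arrays limits the precision, and low MAS5 signals are noisy. The members and lists were chosen with earlier results of these data known. Named are all family members, genes past 2-fold of the 5 lists that are not marker lists (at most 4 a direction, largest first), and fixed genes of related and marker lists (Bmp1, Col2a1, Eln, Fn1, Plod2, Atp7a, Col10a1, Ihh, Prg4, Col1a1, Col3a1). Col1a2, Mmp13, Scx, Dpt, Erg, Lyz2, Tnnt3, Des, Thbs1, Pcolce2, Colgalt1, Cox17, Fbln1, Fbln2 and Fbln5 were added after their values were seen. A comparison of the proteins was planned and not run. Python 3.11.15, pandas 2.3.3, numpy 2.4.6 and statsmodels 0.14.6 (lowess, span 0.3) were used, and the steps were tested on simulated data.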

Additional observations from a re-analysis of the deposited data

How the results depend on the processing

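Alternatives were 3 scalings (equal medians, quantile normalization, lowess centring), 4 floors (90th and 99th percentile, a floor for each array, no floor) and 2 choices of probe set (the mean of all, and leaving out those with suffixes that mark possible matches to several transcripts). The count of 1 higher and 1 lower lysyl oxidase gene was the same under all 9. With the floor at the 99th percentile, the bound of Loxl1 was -2.23 and Loxl4 became a bound of 2.99. Without a floor Loxl1 was -3.65. With the mean of all probe sets, Loxl1 was -1.38, Loxl4 was 2.58 and Lox was 0.034. For Loxl1 and Lox this mean includes a probe set under the floor on both arrays, counted as no difference. Loxl4 was also a bound with equal medians (3.54) and quantile normalization (3.38). Equal medians moved the median of all genes from -0.05 to 0.22, and relative to it Loxl3 (0.20) and Lox (-0.08) lay lower. The numbers of all genes at least 2-fold higher and lower were 1644 and 3046 without a floor, and 371 and 490 with the mean of probe sets. Slc31a2 was under 2-fold with each of the 3 scalings and with the mean of probe sets. No paired analysis was possible because each group is 1 array. Low signals limit Lox, whose probe sets all lay within 3-fold of the floor or under it, and Loxl1 on the columnar/hypertrophic array.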
